A study of Mus musculus with 2 samples.

Results

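Mrc1 high C1q tumor macrophages are CD45+ cells from B16-F10 melanoma that carried UMIs of the complement genes C1qa, C1qb and C1qc together with Mrc1, the gene of the mannose receptor CD206. They numbered 442 of the 12078 cells kept from 2 single-cell RNA-seq libraries, 215 of 6284 in the library labelled Irg1+/+ and 227 of 5794 in the library labelled Irg1-/-. A cell was a member if mitochondrial genes held under 10% of its UMIs, C1qa, C1qb and C1qc summed to at least 10 UMIs, Mrc1 had at least 4, Lyve1, Cbr2 and Cd163 summed to at most 2, Mki67 and Top2a to at most 2, Retnla had at most 9, and Vegfa, Hilpda, Ero1l, Egln3 and Bnip3 held under 0.15% of its UMIs. These 15 genes chose the cells, so their levels describe the choice and are no finding.

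Each library was made from CD45+ cells sorted from subcutaneous tumors of B16-F10, a melanoma line of C57BL/6 mice, on day 10 after injection, with pieces of 100 mm3 from 3 mice of a genotype pooled. The Irg1+/+ hosts carry the intact Irg1 gene, now named Acod1, and the Irg1-/- hosts lack it in the whole body. The B16-F10 cells were injected into both genotypes in the same way. There is 1 library per genotype, so no test between genotypes can be made, and genotype cannot be told apart from the pool of mice or the preparation. Intervals below are exact 95% intervals, Poisson for levels, Clopper-Pearson for shares and conditional binomial for ratios, and cover counting error only.

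C1q starts the classical complement pathway and is made in tissues chiefly by macrophages. Mrc1 is a scavenger receptor of macrophages that is raised by interleukin-4 and in many resident macrophages. Macrophages in tumors arise largely from blood monocytes, which lose Ly6c2 and Ccr2 as they mature, and some take up lipid and dead cells and express Trem2, Gpnmb, Spp1 and lipid-handling genes. Acod1 makes itaconate from an intermediate of the TCA cycle in activated myeloid cells.

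Promoters of marker genes are printed because the cells were defined by genes that are expressed together. The motif GAGGAA, the core of the purine-rich box bound by PU.1 (Spi1), a factor that macrophages need, was searched on both strands in the 250 bases before the RefSeq start (GRCm38.p6). It was present in 6 of the 7 marker promoters that the table holds, Mrc1, C1qb, C1qc, Trem2, Pf4 and Igf1, and in 23.3% of 32851 promoters of the same length. It was 1 of 4 motifs searched, all on both strands. The longer GAGGAAGT, which holds GAGGAA, was in 2 of the 7 (2.44% of all promoters), CACGTG in none (6.02%) and CATGTG in 3 (12.3%). Capitals mark a match on either strand (GAGGAA or TTCCTC). The windows shown are those of C1qb at chr4:136886201-136886450 on the minus strand, Trem2 at chr17:48346151-48346400, Pf4 at chr5:90772185-90772434 and Gpnmb at chr6:49036268-49036517, the last 3 on the plus strand.
C1qb: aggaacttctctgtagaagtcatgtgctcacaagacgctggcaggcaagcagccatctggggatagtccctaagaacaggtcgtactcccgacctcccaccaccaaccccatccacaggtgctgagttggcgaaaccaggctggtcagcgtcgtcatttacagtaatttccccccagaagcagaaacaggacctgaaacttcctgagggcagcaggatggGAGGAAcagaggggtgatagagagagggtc
Trem2: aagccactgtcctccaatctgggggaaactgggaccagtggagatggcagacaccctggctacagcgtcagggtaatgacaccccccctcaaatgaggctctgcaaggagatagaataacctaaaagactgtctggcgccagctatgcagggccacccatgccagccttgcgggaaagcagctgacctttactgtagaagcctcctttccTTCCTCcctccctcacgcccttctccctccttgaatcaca
Pf4: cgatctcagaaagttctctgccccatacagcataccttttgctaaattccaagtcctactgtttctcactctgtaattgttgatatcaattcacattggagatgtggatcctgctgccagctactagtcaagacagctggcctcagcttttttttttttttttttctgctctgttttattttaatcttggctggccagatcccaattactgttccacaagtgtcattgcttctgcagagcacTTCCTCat
Gpnmb: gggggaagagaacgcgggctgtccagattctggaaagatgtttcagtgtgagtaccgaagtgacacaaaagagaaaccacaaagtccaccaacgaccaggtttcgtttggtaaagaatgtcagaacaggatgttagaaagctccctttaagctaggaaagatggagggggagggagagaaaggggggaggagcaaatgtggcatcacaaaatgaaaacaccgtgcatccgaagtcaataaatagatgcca
The match began 30 bases before the start in C1qb, 40 in Trem2 and 8 in Pf4, and the Gpnmb window held none. A match is a description of letters and does not show binding.

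The share of kept cells that were Mrc1 high C1q cells was 3.42% in the Irg1+/+ library (interval 2.99 to 3.90) and 3.92% in the Irg1-/- library (3.43 to 4.45), so the intervals overlapped. Of all cells with at least 10 C1q UMIs they were 17.0% (215 of 1268) and 21.0% (227 of 1079). Their median depth was 11780 UMIs (range 867 to 34331) and 11986 UMIs (1545 to 38611), with median gene numbers of 3540 and 3566, whereas other cells had median depths of 4509 and 4520 UMIs. A rule on UMIs takes deep cells more easily. When all cells were first thinned to 4000 UMIs the same rule kept 4.08% of 3553 Irg1+/+ cells and 3.31% of 3267 Irg1-/- cells, so that the order of the libraries turned, and 68 of those 145 cells and 73 of those 108 were among the members. Thinning also loosens the upper limits on Lyve1, Cbr2 and Cd163, on Mki67 and Top2a, and on Retnla. The cells so chosen are thus a different mix, and its part in the turned order was not tested.

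The edges of the rule were crowded. With every other condition met, 29 Irg1+/+ and 42 Irg1-/- cells had 3 Mrc1 UMIs and stayed outside, and 36 and 43 cells had 4 and were members. Trem2, which the rule did not use, was at 84.1 CPM (counts per 1000000, here UMIs summed over the cells and scaled to their total without mitochondrial genes) outside and 177 CPM inside in the Irg1+/+ library, but at 247 and 103 CPM in the Irg1-/- library. Pf4 was at 69.5 outside and 245 CPM inside in Irg1+/+, and at 201 and 110 CPM in Irg1-/-. At 3 and 4 UMIs these markers thus had opposite orders in the libraries. With 2 UMIs outside and 5 inside, Pf4 was higher inside in both (131 and 369 CPM in Irg1+/+, 169 and 411 CPM in Irg1-/-). Trem2 was there at 143 and 165 CPM in Irg1+/+ and at 156 and 156 CPM in Irg1-/-. Each of these values rests on 24 to 63 cells. Gpnmb at 3 and 4 UMIs was higher inside in both (113 outside and 399 CPM inside in Irg1+/+, 106 and 157 CPM in Irg1-/-). Igf1 at 3 and 4 UMIs was lower inside in both (58.5 and 34.2 CPM, 28.8 and 4.77 CPM). The order of Gpnmb turned at 2 and 5 UMIs (882 outside and 226 CPM inside in Irg1+/+, 138 and 35.6 CPM in Irg1-/-). Igf1 at 2 and 5 UMIs was higher inside in Irg1+/+ (31.4 and 104 CPM) and lower inside in Irg1-/- (16.5 and 12.96 CPM). At the hypoxia edge, 42 and 14 members held 0.10 to 0.15% of UMIs in the 5 hypoxia genes, and 29 and 10 cells with 0.15 to 0.20% stayed outside.

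The label was checked against macrophage genes and the markers that the rule did not use. Csf1r, the receptor of macrophage colony-stimulating factor, had a UMI in 98.6% and 99.6% of members of the Irg1+/+ and Irg1-/- libraries and was at 698 and 712 CPM. Adgre1 (F4/80) was at 380 and 438 CPM and Cd68, a lysosomal membrane protein of macrophages, at 1741 and 1413 CPM. T cells with at least 3 UMIs of Cd3d, Cd3e and Cd3g and no Csf1r or Itgam (509 and 256 cells) served as a measure of free RNA, since they should lack macrophage RNA. The gate left out T cells holding Csf1r or Itgam, so it gave no background for Csf1r. It may also give too low a background for other macrophage genes. Mertk, a receptor for dead cells, was at 67.9 and 57.9 CPM in members and at 2.3 and 1.1 CPM in T cells.

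Trem2, a lipid receptor of macrophages, was at 218 CPM (201 to 236) in the Irg1+/+ and 176 CPM (161 to 192) in the Irg1-/- members, against 96.1 and 79.5 CPM in all other cells and 26.3 and 19.6 CPM in T cells. Pf4, a chemokine of platelets and macrophages, was at 435 and 308 CPM, against 195 and 145 CPM in other cells and 62.0 and 56.6 CPM in T cells. Igf1, an insulin-like growth factor, was at 105 and 62.8 CPM, against 62.7 and 20.1 CPM in other cells. In both libraries all 3 genes were past 1.5-fold over all other cells, but none was over the C1q cells kept out by the hypoxia condition or over those kept out by Lyve1, Cbr2 and Cd163. Pf4 was at 846 and 614 CPM in the first and at 762 and 1076 CPM in the second, above the members in both libraries. After thinning, a Pf4 UMI was seen in 45.5% and 44.6% of members, 64.5% and 61.0% of the hypoxic cells and 85.5% and 87.0% of the Lyve1, Cbr2 or Cd163 cells. Gpnmb, a lysosomal glycoprotein of lipid-loaded macrophages, was at 392 and 175 CPM in members and at 370 and 142 CPM in other cells, a log2 fold of only 0.08 and 0.31. Gpnmb did not set the members apart from the other cells, and 1 cell held 23.4% of its UMIs in the Irg1+/+ members and 1 cell 29.4% in the Irg1-/- members.

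**Figure D1:**
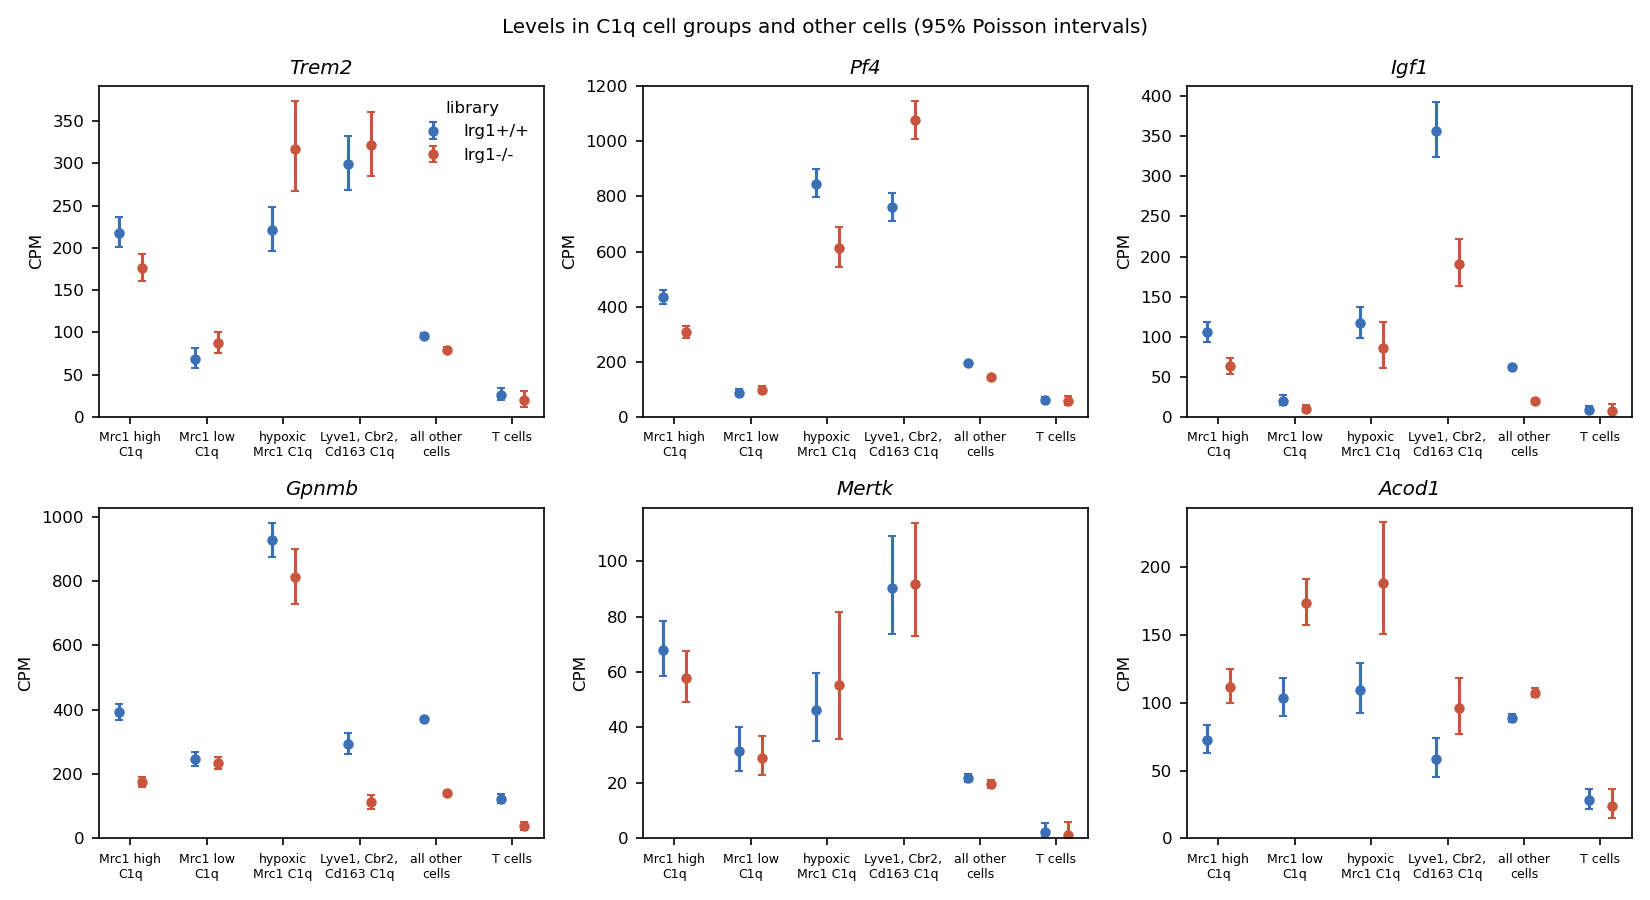
Summed level in CPM (y axis, linear from 0) of Trem2, Pf4, Igf1, Gpnmb, Mertk and Acod1 in 6 groups of cells (x axis), with 1 point per library (blue Irg1+/+, red Irg1-/-) and bars for exact 95% Poisson intervals. Trem2, Pf4 and Igf1 are higher in Mrc1 high than in Mrc1 low C1q cells in both libraries, and Gpnmb is highest in the hypoxic group.

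Over all other kept cells, 4.99% of 14169 genes with at least 20 UMIs were past 1.5-fold higher in members in both libraries and 15.1% were past it lower, which is the background for the counts below. Genes of macrophage identity were higher for 8 of 12, among them Mertk, Maf, Adgre1, Cd68, Fcgr1, Itgam and Aif1, and lower for none. Mertk led the ranking by the smaller of the 2 libraries' folds, at log2 1.66 in Irg1+/+ and 1.56 in Irg1-/-. Ms4a7, a membrane protein of mature macrophages, was at 500 and 530 CPM in members and 156 and 184 CPM in other cells. The ranking also held Psd3, Gdf3, Clmp, Ccl8, Pdgfc, C5ar2, F7, Itga9 and Hpgds. Among them Ccl8, a chemokine that attracts monocytes, had log2 folds of 1.48 and 1.66, and Hpgds, which makes prostaglandin D2, 1.35 and 1.62. Over other C1q cells fewer of the 12 macrophage identity genes were higher, and none was lower. The counts were 1 over C1q cells with 0 or 1 Mrc1 UMI, 3 over the hypoxic cells and none over the Lyve1, Cbr2 or Cd163 cells.

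Of 23 lysosome and cathepsin genes, 14 were past 1.5-fold higher than in other cells in both libraries and none lower, with medians of log2 0.74 and 0.69 against medians over all genes of -0.16 and -0.12. Of the same 23 genes, 4 were higher and none lower over C1q cells with 0 or 1 Mrc1 UMI, 1 was higher and 2 lower over the hypoxic cells, and none was higher and 1 lower over the Lyve1, Cbr2 or Cd163 cells. Ctsb, a cysteine protease, was at 8666 CPM in Irg1+/+ and 6908 CPM in Irg1-/- members, against 4279 and 3457 CPM in other cells. Lgmn, an endopeptidase of the lysosome, had log2 folds of 1.13 and 1.19. Of 20 genes of lipid-associated macrophages, 12 were higher, among them Lpl, the lipoprotein lipase, at log2 1.46 and 1.22. Of 20 transcription factors, 5 were higher, among them Maf, Cebpa, Nr1h3 and Pparg, and 2 lower (Irf4 and Bhlhe40). Markers of other leukocytes were lower, all 8 for T cells and all 5 for NK cells, and the lowest genes of the ranking were the cycle genes Cenpe and Pclaf and the genes Nrgn, Gzmb, Prf1 and Rnf125. Gzmb, a granzyme of cytotoxic cells, was at 140 and 143 CPM in members and 771 and 854 CPM in other cells. The rule removed cycling cells, so the log2 folds of Cenpe and Pclaf (-3.30 and -2.78 in Irg1+/+) stand close to the choice of cells. Over the 3 other groups of C1q cells none of the 20 transcription factors was higher. Over the hypoxic cells 2 were lower, and over the Lyve1, Cbr2 or Cd163 cells 1 was. Over the last group none of the 20 lipid-associated genes was higher and 1 was lower.

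Which genes went with Mrc1 among C1q cells was read against the 249 Irg1+/+ and 263 Irg1-/- cells that met every other condition but had 0 or 1 Mrc1 UMI. These Mrc1 low cells were shallower, with median depths of 7187 and 8686 UMIs. In both libraries 2.53% of 10776 genes were past 1.5-fold higher in the Mrc1 high cells and 4.17% were lower. Of 16 genes of alternative activation, 8 were higher and none lower. They include the scavenger receptors Cd36 (684 and 502 CPM against 291 and 259 CPM) and Stab1 (167 and 117 against 48.0 and 48.5 CPM), the lectins Mgl2, Clec10a and Siglec1, and F13a1 and Ccl24. Mgl2, a lectin that binds galactose-type sugars, was at 438 and 328 CPM in Mrc1 high and at 182 and 69.4 CPM in Mrc1 low cells. The alternative activation list did not set the members apart from other Mrc1 C1q cells. Over the hypoxic cells 1 of 16 of its genes was higher and 2 lower. Over the Lyve1, Cbr2 or Cd163 cells none of 19 was higher and 4 were lower.

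Of 19 chemokines, 9 were higher than in Mrc1 low cells (Pf4, Ccl2, Ccl6, Ccl7, Ccl8, Ccl9, Ccl12, Ccl24 and Cxcl1) and 2 were lower (Ccl5 and Ccl22). Pf4 was at 435 and 308 CPM against 86.8 and 96.9 CPM, and Ccl6 had log2 folds of 1.77 and 1.24. Ccl22, a ligand of CCR4 made by dendritic cells, was at 90.8 and 67.4 CPM against 363 and 194 CPM. Of 10 growth factors, 5 were higher (Igf1, Pdgfc, Hbegf, Areg and Gdf15), with Igf1 at 20.4 and 9.9 CPM in the Mrc1 low cells. Of 20 lipid-associated genes 7 were higher, including Trem2, Lpl, Lipa, Fabp4 and Fabp5, and of 9 matrix genes 4 were (Mmp8, Mmp12, Mmp13 and Timp2). Mmp12, the macrophage elastase, was at 473 and 133 CPM against 108 and 46.0 CPM. The ranking of higher genes was led by Atp6v0d2, a subunit of the proton pump of lysosomes, at log2 2.79 and 3.74, Igf1 at 2.36 and 2.65, and Fcrls, an Fc receptor-like molecule, at 2.66 and 2.33. Flrt2, Pmp22, Plxdc2 and Nxpe5 were also among the 10 highest.

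On the other side, 5 of 8 dendritic cell genes were lower in the Mrc1 high cells (Flt3, Xcr1, Clec9a, Ccr7 and Fscn1). Xcr1, the chemokine receptor of cross-presenting dendritic cells, was at 29.2 and 20.2 CPM against 155 and 57.1 CPM in Mrc1 low cells. Of 15 genes of the interferon gamma response 2 were lower, the GTPases Gbp2 and Gbp5, and of 10 MHC class II genes 2 were lower. The lowest values, Jchain at log2 -4.13 and -5.71 and Igkc at -3.10 and -4.11, rested in Irg1+/+ on 1 Mrc1 low cell with 330 of 354 Jchain UMIs and on 1 with 3628 of 4020 Igkc UMIs. In Irg1-/- the highest Mrc1 low cell held 650 of 2189 Jchain UMIs and the highest for Igkc 4449 of 15290 UMIs. Ace, Clic5, Spint2, Gpr141b, Dnase1l3 and Gm12185 completed the 10 lowest. The part of cells of other types, or of the difference in depth, in these folds was not tested.

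Cells that met all conditions but the hypoxia one, called hypoxic Mrc1 C1q cells here, numbered 97 and 42 and had median depths of 11907 and 10888 UMIs. Against them 5.51% of 10139 genes were past 1.5-fold higher in members in both libraries and 4.34% lower. Of 13 glycolytic genes 12 were lower, with medians of log2 -0.87 and -1.15. They include Slc2a1, the glucose transporter GLUT1, at 158 and 110 CPM against 533 and 486 CPM. Glycolytic genes respond to the same factor, HIF-1, as the genes of the rule, so this count stands close to the choice of cells.

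Some lipid and matrix genes were lower too. Of 20 lipid-associated genes 8 were lower than in the hypoxic cells, among them Spp1 (886 and 357 CPM against 1958 and 927 CPM) and Gpnmb (392 and 175 against 927 and 812 CPM). Of 7 matrix genes 3 were lower, Mmp8, Mmp12 and Mmp13, while the median of the list was log2 0.23 in Irg1+/+ and -0.34 in Irg1-/-. Nos2, the inducible nitric oxide synthase, was at 56.5 and 15.3 CPM in members against 266 and 441 CPM, and Cxcl3, Ctsk, Ak4, Ndrg1, Selenbp1, Mgarp and Rsad2 were in the same ranking. Mrc1 itself was at 961 and 839 CPM in members and 1010 and 949 CPM in the hypoxic cells. Higher in members were Cd300e, an activating receptor of monocytes (43.6 and 37.6 against 3.9 and 4.4 CPM), Prkcb, a protein kinase C (log2 1.46 and 1.47), and Gbp2b, P2ry13, Gart, Klra17, Map11 and Dhcr7. Syt4 and Pmel were also ranked there, but 1 Irg1+/+ member held 65.5% of the Syt4 and 67.9% of the Pmel UMIs. Macrophage identity genes were higher for 3 of 12, Lyz2, Aif1 and Cx3cr1.

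C1q cells with more than 2 UMIs of Lyve1, Cbr2 and Cd163, genes of macrophages resident in tissue, numbered 64 and 69 and had median depths of 17476 and 12318 UMIs. Past 1.5-fold in both libraries were 2.96% of 10250 genes higher and 3.18% lower in the Mrc1 high cells. Gas6, the bridging ligand between dead cells and Mertk, was at 24.0 and 15.6 CPM against 160 and 106 CPM. Igf1 was at 105 and 62.8 CPM against 357 and 191 CPM, and Stab1, Fcrls, Ednrb, Npl, Stard8, Igfbp4, Rnase4 and Wwp1 were the other genes of the 10 lowest. Of 9 MHC class II genes 4 were higher (H2-DMa, H2-DMb1, H2-DMb2 and Ciita). Ciita, the transcriptional activator of class II genes, was at 70.5 and 141 CPM against 21.5 and 57.5 CPM. Flt1, a VEGF receptor, was at 67.9 and 41.5 CPM against 12.9 and 11.05 CPM, Inhba, a subunit of activin, at 91.9 and 55.4 against 26.6 and 8.8 CPM, and Klrb1b, AA467197, Ifit1bl1, Gm9733 and Cnn3 were also higher, as were Syt4 and Tyrp1 with the single cell named above. Of 15 interferon gamma genes 4 were higher. The comparisons above all share the 442 members, so they are not independent of each other.

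The members were not uniform. After thinning to 4000 UMIs (198 Irg1+/+ and 224 Irg1-/- cells), the genes with the highest variance over mean, a measure that is 1 for counting noise alone, included Spp1 (26.1 and 17.1), Lyz2 (19.0 and 13.2), Ccl8 (12.02 and 15.7), Cxcl9 (11.96 and 12.8), Ctsb (11.7 and 12.3), Cxcl10 (12.8 and 11.2), H2-Ab1 (11.9 and 11.2), Ccl6 and Fth1. The median over 6455 genes was 1.10 and 1.11. They were ranked by the lower of the 2 libraries, and Spp1, or osteopontin, a secreted matrix protein, came first. Interferon-induced chemokines (Cxcl9 and Cxcl10) and an MHC class II gene varied beside it. Mmp13 reached 30.3 in Irg1+/+ and Hmox1, which breaks down heme, 45.6 in Irg1-/- members, but 6.75 and 10.2 in the other library. High values need not mark types of cell, since abundant genes have more room above counting noise.

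The share of a cell's UMIs in MHC class II genes ran from 0.289% to 7.21% with a median of 2.12% in Irg1+/+ members, and from 0.348% to 8.24% with a median of 2.87% in Irg1-/- members. Lysosome and cathepsin genes had medians of 3.26% and 2.89% and lipid-associated genes 1.42% and 0.958%. Monocyte genes had medians of 0.428% and 0.679%, type I interferon genes 0.170% and 0.2995%, and interferon gamma genes 0.231% and 0.347%. In each of these lists the ranges of the libraries overlapped. For type I interferon genes the quartiles were 0.109% and 0.258% in Irg1+/+ and 0.199% and 0.453% in Irg1-/- members.

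**Figure D2:**
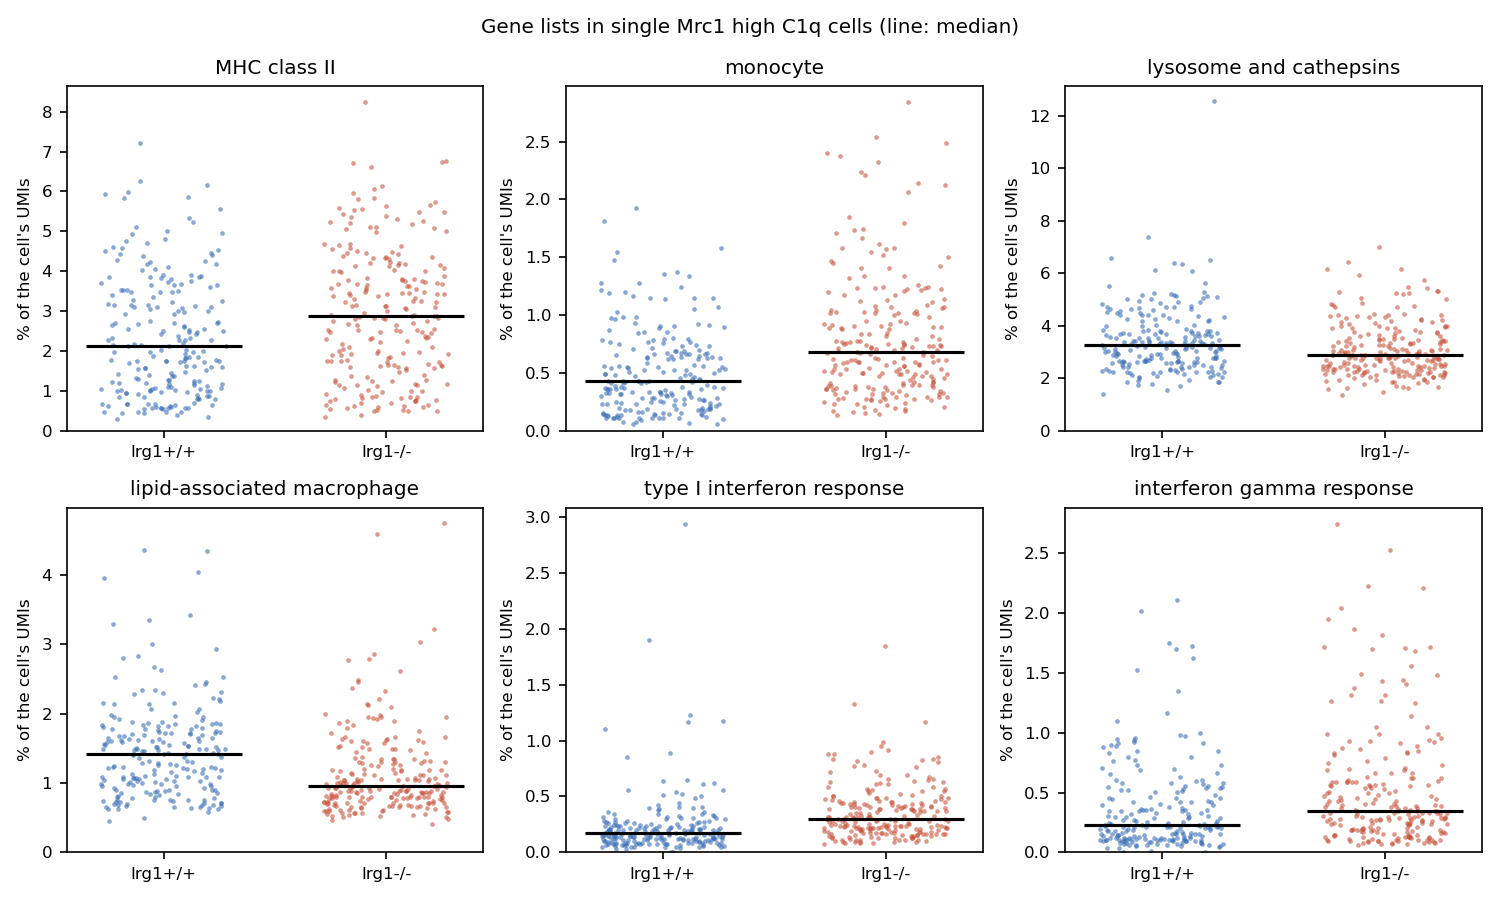
Share of a cell's UMIs (y axis, percent) in 6 gene lists, with 1 point per Mrc1 high C1q cell, 215 Irg1+/+ and 227 Irg1-/- (x axis), and a line at the median. Points of both libraries cover most of the same range in each list, with medians higher in Irg1-/- for MHC class II, monocyte and both interferon lists and lower for the lysosome and lipid-associated lists.

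Across members thinned to 4000 UMIs, the lipid-associated share went with the lysosome share (Spearman rho 0.57 over 198 Irg1+/+ cells and 0.61 over 224 Irg1-/- cells). The monocyte share went against the C1q sum (rho -0.43 and -0.41) and against the lysosome share (-0.46 and -0.46), and the class II share went against the lipid-associated share (-0.45 and -0.32). The C1q sum was used by the rule. Cells of a library share its preparation, and shares of 1 total are tied to each other, so these are descriptions. The signs of these relations were alike in both libraries.

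Between the genotypes, Acod1 is given first because it is the targeted gene. Irg1+/+ members had 72.7 CPM (62.9 to 83.6) of Acod1. Members from the library labelled Irg1-/- had 111 CPM (99.5 to 125), and the log2 ratio was 0.61 (0.35 to 0.88). A UMI was seen in 35.3% and 44.9% of members, against 7.47% and 8.59% of T cells, whose median depths were 3365 and 2697.5 UMIs. After thinning to 4000 UMIs the shares were 19.7% and 24.1% in members and 7.43% and 8.20% in T cells. Acod1 was also higher in the library labelled Irg1-/- in the Mrc1 low (log2 0.74), hypoxic (0.79) and Lyve1, Cbr2 or Cd163 (0.72) cells and in all other cells (0.27). The level of Acod1 therefore went against the label. Which part of the gene was deleted is not given in the sources used here, so whether its counts can check the label is not known. Below, as above, Irg1-/- members means those of the library labelled Irg1-/-, and every direction is read from that label. Position of Acod1 (GENCODE M21, GRCm38) is chromosome 14, 103046977 to 103056573.

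Of 6467 genes with at least 100 UMIs and a UMI in 10% of members of either library, 3.14% were past 1.5-fold higher in the library labelled Irg1-/- (203 genes) and 2.95% lower (191 genes), with a median of log2 -0.02. Among the 9774 genes with at least 20 UMIs, the base of the counts for gene lists, 5.84% were higher and 7.85% lower. More genes were past it higher than lower in the Irg1-/- members in the lists of type I interferon (8 of 15), interferon gamma (7 of 15), monocyte (7 of 13) and MHC class II genes (3 of 9). More were past it lower in the lists of growth factors (6 of 10), lipid-associated (7 of 20), chemokine (6 of 18) and matrix genes (3 of 7), of which the lipid-associated list had a median of log2 0.04 when the rule was applied to thinned cells. Most genes of macrophage identity (1 of 12 higher and none lower), of complement and Fc receptors (1 of 12 higher) and of lysosomes (2 of 23 lower) stayed within 1.5-fold. Of the genes of the rule, Mrc1 was at 961 and 839 CPM, C1qa at 1017 and 853 CPM, C1qb at 2847 and 2653 CPM and C1qc at 2161 and 1744 CPM.

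**Figure D3:**
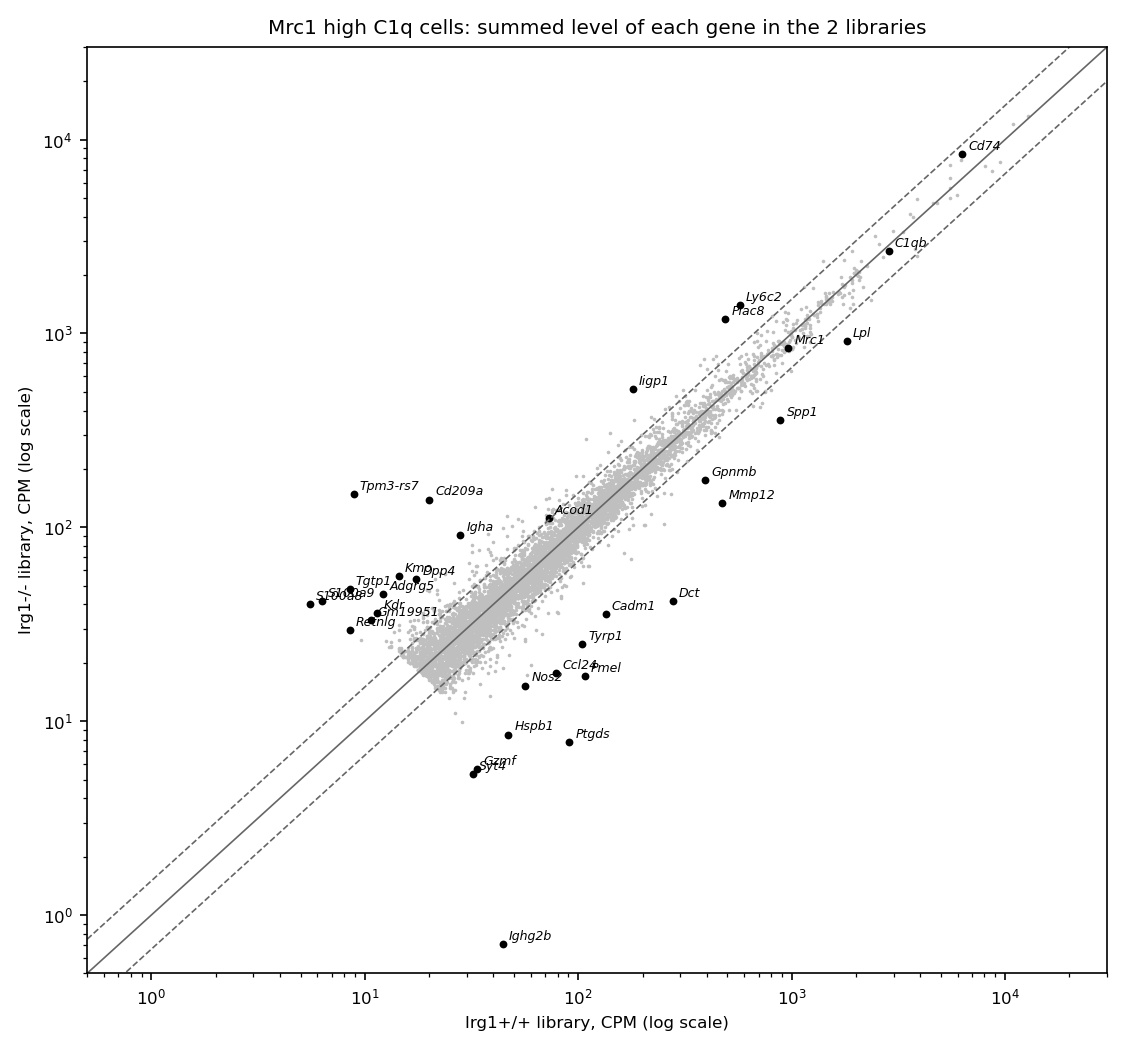
Summed level of each of 6467 genes in Mrc1 high C1q cells, Irg1+/+ library on the x axis and Irg1-/- library on the y axis, in CPM on log scales. The solid line is equality, dashed lines are 1.5-fold, and black points are named genes, with Ly6c2, Plac8 and Iigp1 above and Spp1, Mmp12 and Gpnmb below.

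Of 13 monocyte genes 7 were past 1.5-fold higher and none lower, with a median log2 ratio of 0.59. Ly6c2, a surface protein of inflammatory monocytes, was at 572 CPM (543 to 601) in Irg1+/+ and 1395 CPM (1352 to 1439) in Irg1-/- members, and Plac8 at 487 and 1185 CPM. Ccr2, the receptor by which monocytes enter tissue, was at 808 and 1230 CPM, and S100a4 at 402 and 653 CPM. Fn1 at log2 -0.42 and Vcan at -0.35 went the other way. T cells, some of which express both genes, had 876 and 1467 CPM of Ly6c2 and 593 and 1017 CPM of Plac8, so the same order of the libraries was seen in them. Ly6c2 was higher in the Irg1-/- library in Mrc1 low cells too (log2 1.12), and in all other cells (1.09).

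All 15 genes of the interferon gamma response had a ratio above 0, and 7 were past 1.5-fold, with a median log2 ratio of 0.51. Iigp1, an immunity-related GTPase, was at 180 CPM (165 to 197) and 517 CPM (490 to 544), against 163 and 171 CPM in T cells, and Tgtp1, of the same family, at 8.49 and 47.9 CPM. Tgtp1 has a near-identical neighbor copy, Tgtp2, so reads may be split between them. Socs1, a brake on cytokine signals, was at 46.5 and 90.2 CPM and Gbp5 at 81.2 and 138 CPM. Cxcl9 and Cxcl10, the chemokines that draw T cells through CXCR3, were at 1110 and 1337 CPM (log2 0.27) and at 299 and 413 CPM (0.46), within 1.5-fold.

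Of 15 genes of the type I interferon response 8 were higher and none lower past 1.5-fold, with a median of 0.61 (1.24 when the rule was applied to cells thinned to 4000 UMIs). Irf7, the master regulator of interferon alpha genes, was at 137 and 244 CPM, Isg15 at 196 and 300 CPM, Usp18 at 21.4 and 54.0 CPM and Ifi27l2a at 386 and 738 CPM. Ifit1 (log2 -0.38), Rsad2 (-0.21) and Ifit2 (-0.09) did not follow, and 1 Irg1+/+ member held 39.8% of the Ifit1 and 40.1% of the Ifit2 UMIs. Isg15 was higher in the Irg1-/- library in Mrc1 low cells (1.02) and in all other cells (0.93) as well.

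Of 9 MHC class II genes 3 were past 1.5-fold higher, Ciita, H2-DMb2 and H2-Ob, and all 9 had a ratio above 0, with a median of 0.42. Cd74, the invariant chain, was at 6279 CPM (6185 to 6374) and 8425 CPM (8318 to 8533), H2-Aa at 5525 and 7391 CPM, and Ciita at 70.5 and 141 CPM. The log2 ratio of Cd74 was 0.42 in members, 0.37 in hypoxic cells, 0.46 in Lyve1, Cbr2 or Cd163 cells, 0.33 in all other cells and 0.04 in Mrc1 low cells, and differences between these groups were not tested. None of 15 MHC class I genes passed 1.5-fold, though all 15 were above 0 with a median of 0.24.

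**Figure D4:**
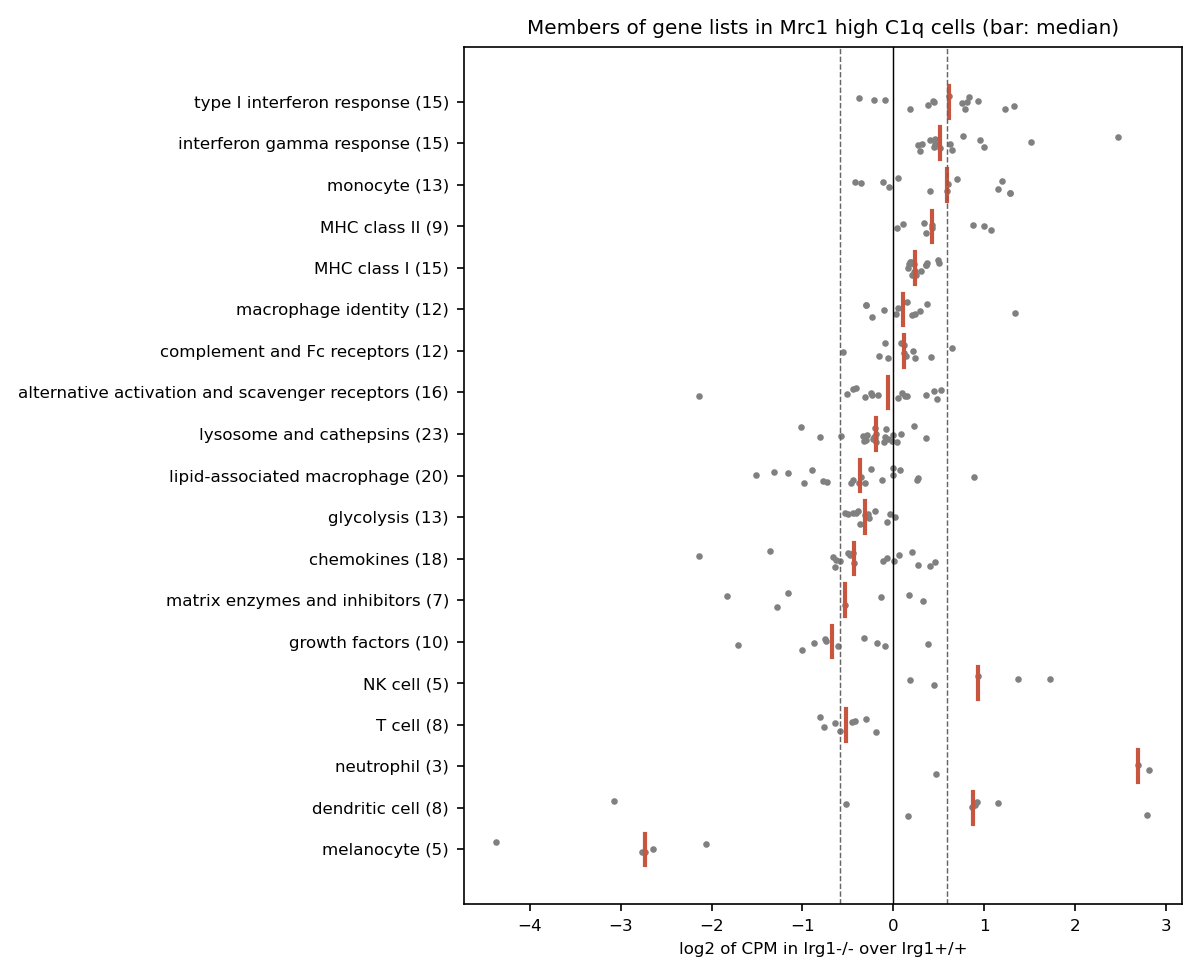
Log2 of CPM in Irg1-/- over Irg1+/+ Mrc1 high C1q cells (x axis) for the members of 19 gene lists (y axis, number of genes measured in brackets), 1 grey point per gene and a red bar at the median. Dashed lines mark 1.5-fold, and interferon, monocyte and MHC class II lists lie to the right and growth factor, chemokine and matrix lists to the left.

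Of 20 lipid-associated genes 7 were past 1.5-fold lower (Fabp4, Spp1, Gpnmb, Lpl, Cd9, Fabp5 and Cd63), 1 was higher (Pltp), and the median was -0.37. Spp1 was at 886 CPM (851 to 922) in Irg1+/+ and 357 CPM (336 to 380) in Irg1-/- members, against 91.5 and 40.2 CPM in T cells, and was seen in 76.3% and 49.3% of members (54.0% and 33.9% after thinning) and in 25.9% and 10.9% of T cells (28.6% and 6.56%). Lpl was at 1810 and 915 CPM and Fabp5, a fatty acid carrier, at 712 and 417 CPM. Apoe was at 1363 and 1359 CPM, almost the same level. Gpnmb was at 392 and 175 CPM, a log2 ratio of -1.16, but T cells also had 123 and 37.0 CPM. When the rule was applied to cells thinned to 4000 UMIs, Gpnmb had a log2 ratio of 0.19 and the list a median of 0.04, but many cells so chosen were not members. The log2 ratio of Lpl was -1.12 in hypoxic cells, -0.97 in Lyve1, Cbr2 or Cd163 cells, -0.75 in all other cells and 0.01 in Mrc1 low cells. That of Gpnmb was -0.19, -1.39, -1.38 and -0.08 in the same order, and in Mrc1 low cells 1 Irg1-/- cell held 357 of 568 Gpnmb UMIs, while the share of cells with a UMI was 37.6% and 24.6% after thinning (56.2% and 38.8% before).

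Of 10 growth factors 6 were past 1.5-fold lower (Areg, Pdgfc, Pdgfa, Csf1, Igf1 and Vegfb), none higher, and the median was -0.67. The growth factor list summed to 434 and 302 CPM in members. The same order of the libraries was seen in T cells (297 and 223 CPM), all other cells (364 and 242) and Mrc1 low cells (243 and 188). It was seen too in hypoxic (569 and 297) and Lyve1, Cbr2 or Cd163 cells (806 and 379 CPM). Igf1 was at 105 CPM (93.4 to 118) and 62.8 CPM (53.9 to 72.8) and was seen in 33.0% and 13.7% of members and 2.95% and 2.34% of T cells, and 1 Irg1-/- cell held 23.2% of its UMIs. Areg, a ligand of the EGF receptor, was at 57.2 and 17.4 CPM. Of 18 chemokines 6 were lower (Ccl24, Cxcl1, Cxcl2, Ccl3, Ccl6 and Ccl8) and none higher, with a median of -0.44. Ccl6 was at 3883 and 2504 CPM, Cxcl2, which draws neutrophils, at 2347 and 1484 CPM and Ccl8 at 749 and 497 CPM. Ccl24, a ligand of CCR3, was at 78.6 and 17.7 CPM, but 1 Irg1+/+ cell held 37.1% of its UMIs. Of the 18 chemokines 6 had a ratio above 0, among them Cxcl9, Cxcl10, Cxcl3 (0.40) and Ccl5 (0.20), none past 1.5-fold. The chemokine list summed to 17775 and 14026 CPM in members, and the order was the same in T cells (5766 and 4387 CPM). It was also the same in hypoxic (22976 and 13959), Lyve1, Cbr2 or Cd163 (21528 and 17132) and all other cells (11140 and 9754 CPM). Mrc1 low cells had 11129 and 11764 CPM.

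Of 7 matrix genes 3 were lower, with a median of -0.53, though its size fell markedly under an alternative setting (last section). Mmp12 was at 473 CPM (448 to 500) and 133 CPM (120 to 147) and was seen in 57.7% and 28.2% of members (34.3% and 15.2% after thinning). T cells had Mmp12 at 46.0 and 31.5 CPM and in 16.9% and 9.77% of cells (16.0% of 175 and 6.56% of 61 cells after thinning), at median depths of 3365 and 2697.5 UMIs against 11780 and 11986 in members. Mmp13, a collagenase, was at 251 and 104 CPM and Mmp8, another, at 40.6 and 18.1 CPM. Mmp12 was lower in the Irg1-/- library in Mrc1 low (log2 -1.23), hypoxic (-0.86) and other cells (-1.45) as well. None of 13 glycolytic genes passed 1.5-fold (median -0.31). Of 16 alternative activation genes only Ccl24 passed. Of 15 genes of itaconate, the TCA cycle and the Tet enzymes, Acod1 was higher and Idh3a, a subunit of isocitrate dehydrogenase, lower (59.1 and 38.0 CPM), with a median of -0.12.

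Among the 12 highest ratios were Cd209a at 19.9 and 139 CPM, S100a8 and S100a9 at log2 2.82 and 2.69, Tgtp1, Kmo (14.4 and 55.7 CPM), Adgrg5, Kdr (11.4 and 36.2 CPM), Dpp4 and Gm19951. Kmo, an enzyme of tryptophan breakdown, had a log2 ratio of -0.30 in Mrc1 low cells, against 1.94 in members, and the difference was not tested. Tpm3-rs7 had the highest ratio at 8.86 and 148 CPM, but it is a near-identical copy of Tpm3, was at 11.3 and 104 CPM in T cells, and is uncertain. Igha was at 28.2 and 90.3 CPM in T cells and 28.1 and 91.2 CPM in members, which are almost the same values. Retnlg had 49.4% of its Irg1-/- UMIs in 1 cell.

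Among the 12 lowest, Hspb1, a small heat shock protein, was at 46.9 and 8.52 CPM, Cadm1, an adhesion molecule, at 134 and 35.5 CPM, and Nos2 at 56.5 and 15.3 CPM, with 35.9% of the Irg1+/+ Nos2 UMIs in 1 cell. Ptgds (log2 -3.51) had 75.6% of its Irg1+/+ UMIs in the same cell that held most Syt4, Pmel, Dct and Tyrp1 UMIs. Ighg2b had 120 UMIs in Irg1+/+ and 2 in Irg1-/- members (log2 -5.65, -9.03 to -4.08) and stood at 37.1 CPM in Irg1+/+ T cells, and Gzmf stood at 202 and 69.6 CPM in T cells against 33.6 and 5.68 CPM in members. Gzmf is a granzyme that T cells make themselves, so they are no background for it.

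Markers of other cell types differed between the libraries too. The 5 melanocyte genes summed to 543 CPM in Irg1+/+ and 88.7 CPM in Irg1-/- members, with Dct the most abundant and none at 0, and to 322 and 48.9 CPM in T cells. All 5 were past 1.5-fold lower, and the Irg1+/+ member named above held 70.0% of the Dct UMIs. The 8 T cell genes summed to 685 and 492 CPM (4 of 8 lower, Trbc2 the most abundant), against 6725 and 7087 CPM in T cells. The 5 NK cell genes summed to 251 and 465 CPM (3 of 5 higher), led by Nkg7 in Irg1+/+ and Gzma in Irg1-/-. The 8 dendritic cell genes summed to 237 and 483 CPM, Fscn1 the most abundant, with 5 higher and Siglech lower, and the 4 neutrophil genes to 53.2 and 143 CPM, Csf3r the most abundant, against 16.0 and 104 CPM in T cells. No marker of these lists was at 0 in either library. Of the members, 208 and 222 had at least 2 UMIs of T, NK, B or melanocyte markers, which held medians of 0.0817% and 0.0703% of a cell's UMIs. Dissociation stress genes had 1 of 14 past 1.5-fold, lower, and a median of 0.24, and of 79 ribosomal protein genes 1 passed. The part of all of these in the ratios between the libraries was not tested.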

How the data were processed

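The files deposited by the authors hold unnormalized UMI counts of 31253 genes in each cell of the 2 libraries, made with BD Rhapsody, fastp, UMI-tools and STAR on the Ensembl release 100 mouse genome. The submitters' processing notes also name CASAVA 1.8. No doublet step is named, no caller was run here, and doublets were kept. Barcodes listed in both libraries numbered 36, of which 1 belonged to a member, in the Irg1-/- library.

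Counts of the cells passing the rule were summed per library without the 13 mitochondrial genes and scaled to CPM, with exact 95% Poisson intervals. For log2 ratios 0.5 UMIs were added to each sum. No test was run and no p-value is given, since each genotype has 1 library. Genes in list counts had at least 20 UMIs over the cells compared, and genes ranked by fold at least 100 UMIs and a UMI in 10% of cells. Named genes were those of the rule and lists, the highest and lowest folds and ratios (10 or 12 in each direction, 6 lowest over other cells), and the 10 of highest variance over mean. Folds over groups of cells were ranked by the library with the smaller change. The members and lists were chosen with earlier results of these data known. Alternatives were other thresholds, thinning to 4000 UMIs, TMM scaling, means of cells' CPM, and leaving out cells. The calculations were tested on simulated counts. Tools were scipy 1.17.1, pandas 2.3.3 and numpy 2.4.6 under Python 3.11.15, and edgeR 4.0.16 (TMM factors only) under R 4.3.3. Results for some genes are not reported here. Promoters came from RefSeq and gene positions from GENCODE M21.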

Additional observations from a re-analysis of the deposited data

Results flagged for a closer look

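The genes below were past 1.5-fold between the libraries in one direction in Mrc1 high C1q cells and past it in the opposite direction in Mrc1 low C1q cells. The difference between the groups of cells was not tested. Ccr7, the chemokine receptor of migrating dendritic cells, had a log2 ratio (Irg1-/- over Irg1+/+) of 1.15 in Mrc1 high and -0.60 in Mrc1 low cells, and Flt3, a growth factor receptor of dendritic cells, 0.86 and -0.60. Vegfb had -0.61 and 0.71. Siglech, a marker of plasmacytoid dendritic cells, had -3.08 and 1.27, with 72.2% of its UMIs in Irg1+/+ Mrc1 high cells in 1 cell. The collagen genes Col1a1 (1.17 and -3.28) and Col3a1 (1.65 and -2.97) had opposite signs too, and 1 Irg1+/+ Mrc1 low cell held 377 of 383 Col1a1 UMIs.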

How the results depend on the processing

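No paired analysis was possible because there is 1 library per genotype. Over 14 alternative settings, 131 values that answer a comparison stayed within their interval, or within 1.5 times for a count, and 16 moved by more. The interval was of counting error for shares and single genes only. For list medians it came from the spread of the list's genes, and for the median fold of the markers it was their range. Such intervals can be wide. That of the matrix list ran from -1.83 to 0.33, so its fall to -0.12 counted as within. Of the values for single genes and other lists, 421 moved by less, 129 by more and 1 reversed. The share of kept cells (Irg1+/+ and Irg1-/-) was 2.47% and 2.71% with at least 6 Mrc1 UMIs, 2.78% and 3.19% with at least 20 C1q UMIs, 4.08% and 3.31% with the rule on cells thinned to 4000 UMIs, and 0.111% and 0.0863% without cells with 2 or more T, NK, B or melanocyte UMIs, which left 7 and 5 cells and gave no gene values. In place of that setting, the tenth of members with most such UMIs was left out, an alternative chosen after seeing the data, as were those without shared barcodes and without the cell with most UMIs of a gene. Under the rule on thinned cells, the median log2 fold of Trem2, Pf4, Igf1 and Gpnmb over other Irg1+/+ cells was 1.70 (0.95 with the rule as given), the type I interferon median 1.24, the lipid-associated median 0.039, and 339 genes were lower between the libraries. There Gpnmb turned to a log2 ratio of 0.19. In that setting only 68 of 145 Irg1+/+ and 73 of 108 Irg1-/- cells were members. Members thinned to 4000 UMIs had a Gpnmb UMI in 42.9% of Irg1+/+ and 22.3% of Irg1-/- cells. The part of depth and of the changed mix of cells was not tested. Genes past 1.5-fold between the libraries were 114 higher and 109 lower when members were thinned, 368 higher and 437 lower with at least 20 UMIs and a UMI in 10% of cells, and 237 higher and 157 lower with TMM scaling. The Acod1 log2 ratio ran from 0.49 to 0.75, and the medians of the MHC class II list from 0.29 to 0.59, interferon gamma 0.41 to 0.68, monocyte 0.47 to 0.85, growth factors -0.67 to -0.38, chemokines -0.51 to -0.28 and matrix genes -0.62 to -0.12. Without its top cell in each library, Retnlg had a log2 ratio of 0.93, Ptgds -1.62, Nos2 -1.45, Dct -1.18 and Pmel -1.23. Depth limits genes of few UMIs, and with 1 library per genotype no comparison between genotypes has a replicate.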
